A study of Mus musculus with 9 samples.

Results

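The odorant receptor (OR) genes Olfr763 to Olfr827 form a tandem array near the far end of mouse chromosome 10, the chromosome that also carries the trace amine-associated receptor (Taar) genes. Members were taken by symbol, as every row of the gene count table named Olfr with a plain number, from Olfr763 to Olfr827, without a pseudogene suffix. That rule gave 56 of the 1107 Olfr genes in the table and 56 of 24421 gene rows in all. It used no measured value. RNA-seq of the whole main olfactory epithelium (MOE) was done in 9 mice, 3 wild-type (WT), 3 heterozygous (het) and 3 homozygous (homo) for a deletion of TAAR enhancer 1, a regulatory element between Taar1 and Taar2. The labels give C57BL/6 mice at postnatal day 14, whereas the study's reporting summary gives an adult age for this line, and these were not reconciled here. The deletion was made with CRISPR-Cas9 and the line was compared within littermates. By genotype the groups differ by 0, 1 or 2 deleted alleles of 1 line. The libraries held between 24583906 and 32631951 counted reads.

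Each mature olfactory sensory neuron is known to express a single receptor gene from a single allele, drawn either from the large OR family or, in a small population, from the Taar family. ORs are G protein-coupled receptors that signal through the olfactory G protein Gnal and adenylyl cyclase Adcy3, and their genes usually have the whole coding sequence in 1 exon. OR genes lie in clusters on many chromosomes, and enhancers scattered over the genome can act on clusters nearby or, through contacts between chromosomes, far away. In bulk tissue, fewer neurons choosing a receptor and less RNA per neuron cannot be told apart.

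On the GRCm38 build the array ran from 129010791, the annotated start of Olfr763, to 130214403, the end of Olfr827, a span of 1.204 Mb in which gene starts were a median of 18.0 kb apart. Its first gene lay 105 Mb from the start of Taar2, so the deletion and the array were on the same chromosome but far from each other. Of the 65 numbers in the range, 9 had no member row, and RefSeq lists 9 pseudogenes in the range on this chromosome. There were 26 members on the plus strand and 30 on the minus strand. Their coding sequences were 924 to 984 bases long. The receptor subfamily names that RefSeq lists as synonyms put 13 members in MOR114, 10 in MOR111, 9 in MOR110, 5 each in MOR113 and MOR210, 4 in MOR108, and the rest in subfamilies of 1 or 2 genes. Olfr765 had no such name.

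By sequence the members ranged widely in relatedness. Olfr819 was at most 47.4% identical to another member, against 98.4% to Olfr247, which is not a member. Over all 1540 pairs, protein identity computed from the GENCODE M21 coding sequences had a median of 63.1% and ranged from 33.5% to 98.7%. A signature that ORs carry at the inner end of the third transmembrane helix was found in 52 of the 56. Its coding bases in the member with the highest WT level of each of the 5 largest subfamilies show how close the members stay at this site. Capitals mark bases that differ from Olfr791.
Olfr791 (MOR114, chr10:129526574-129526603, plus strand): atgtcctatgatcgttatgtggccatctgt
Olfr786 (MOR111, chr10:129437159-129437188, plus strand): atgtcctatgaCcgGtaCAtCgccatTtgC
Olfr801 (MOR110, chr10:129670143-129670172, minus strand): atgtcctatgaCcgAtatgtAgccatctgC
Olfr810 (MOR113, chr10:129791213-129791242, minus strand): atgtcctatgaCAgAtatgtAgccatctgC
Olfr827 (MOR210, chr10:130210712-130210741, minus strand): atgGcctatgaCcgCtTCAtTgccatctgC
Between 4 and 8 of the 30 bases differed from Olfr791, and all 5 stretches lie in the coding part of an exon.

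Near-identical members limit what a read count can assign. At least 95% protein identity was found for 9 pairs of members, and 20 members had such a match to a member or to another Olfr protein. The closest pair was Olfr772 and Olfr773, neighbours on the minus strand with starts 13.9 kb apart, which differed at 7 of 933 coding bases. The next was Olfr823 and Olfr824, starts 11.9 kb apart, which differed at 12 of 945. The 60-base stretches with the most differences between the genes of each pair are shown because such bases are what lets a read be assigned to 1 of the 2 genes. Capitals mark the differing bases.
Olfr772 (chr10:129174203-129174262, minus strand): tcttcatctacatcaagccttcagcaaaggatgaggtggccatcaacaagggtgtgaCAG
Olfr773 (chr10:129186603-129186662, minus strand): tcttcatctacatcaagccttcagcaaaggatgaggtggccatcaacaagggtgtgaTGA
Olfr823 (chr10:130112527-130112586, minus strand): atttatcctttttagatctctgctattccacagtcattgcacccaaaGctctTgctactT
Olfr824 (chr10:130126794-130126853, minus strand): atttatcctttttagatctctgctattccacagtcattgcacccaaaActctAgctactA
Of all 100-base stretches of coding sequence, 38.8% were found in no other GENCODE gene for both Olfr772 and Olfr773, and 53.9% for both Olfr823 and Olfr824. Every 100-base stretch was unique in 20 members, and fewer than 60% were in 7.

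In WT mice the array was expressed much as the OR family as a whole. Its 56 genes were 5.06% of Olfr genes and gave 5.02% ± 0.097 (SD, n = 3) of Olfr reads. Levels are given per length, as reads per kb of coding sequence per 1000000 reads after TMM scaling. Coding lengths were 924 to 984 bases, while annotated exon lengths ran from 936 to 8466 bases. Levels per coding length are thus not corrected for untranslated exon sequence, and comparisons between genes hold for this measure only. The median WT level of the members was 2.28, with quartiles of 1.56 and 4.24. The other 1033 Olfr genes with a coding length had a median of 2.09 and quartiles of 1.06 and 3.54. Among all 1089, 32 members lay above the family median, 19 were in the highest quartile and 11 in the lowest.

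A few members carried much of the signal. Olfr801, an MOR110 receptor gene at chr10:129666989-129673865, had the highest WT level, 12.6 ± 0.85 (SD, n = 3), which was 5.52 times the member median and rank 16 among the 1089 Olfr genes. Olfr820, the only MOR116 gene of the array, followed at 7.99 ± 0.29 and rank 53, and Olfr812 (MOR110) at 6.53 ± 0.62 and rank 84. The next were Olfr791 at 5.73, Olfr810 at 5.30, Olfr794 at 5.14, Olfr813 at 5.07, Olfr786 at 5.05, Olfr796 at 4.97 and Olfr799 at 4.84. These 10 genes gave 37.7% of all member reads, and Olfr801 alone 7.12%. When the full annotated exon length (936 to 8466 bases) replaced the coding length, 8 of these 10 were again among the 10 highest. Exon length was the measure first planned for naming genes, and coding length was used instead. Olfr812 then had the highest WT level, 3.28, ahead of Olfr801 at 2.91, and Olfr820 was at 1.59. The order of the leading genes thus depended on the length used. Below the leading genes the order was loose. For 52 of the 55 pairs of neighbours in the WT order, the WT libraries of both genes overlapped in range, so only 3 steps of the order exceeded the spread between mice. Per coding length, the 3 lowest members that were tested were Olfr785 at 0.31, Olfr774 at 0.40 and Olfr814 at 0.51. Per exon length they were Olfr814 at 0.125, Olfr767 at 0.132 and Olfr802 at 0.135.

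**Figure D1:**
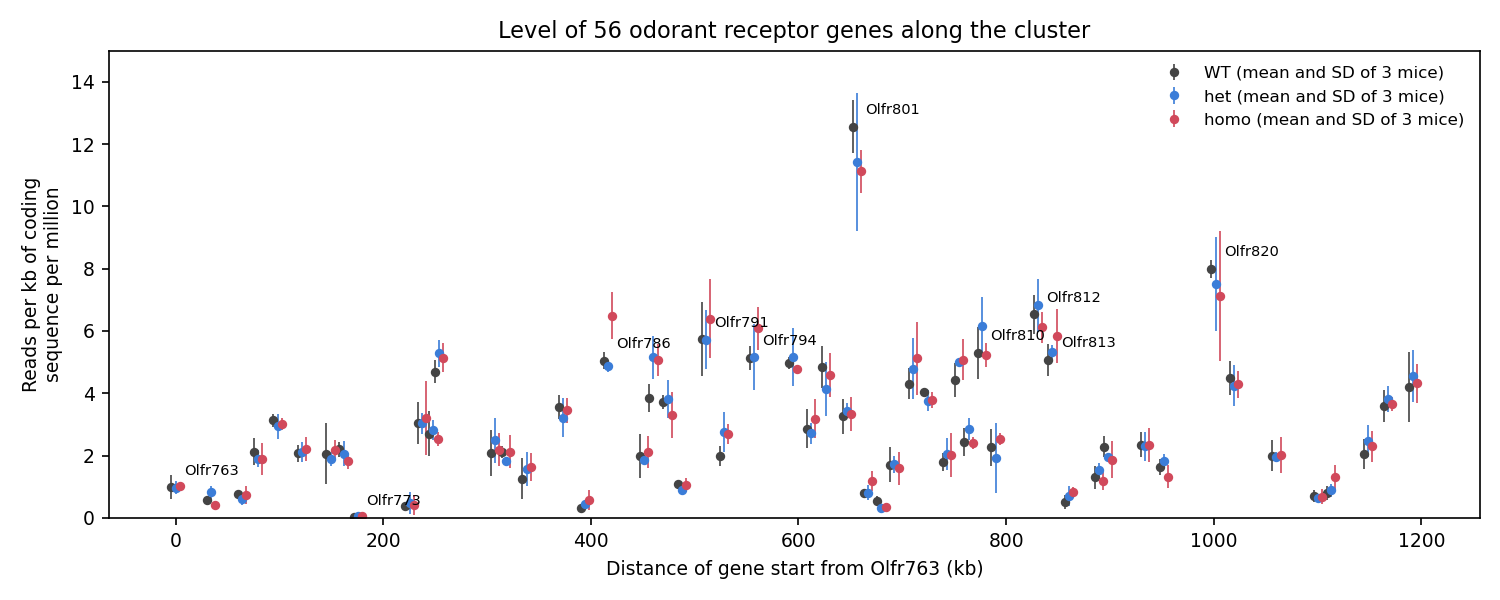
Level of each of the 56 receptor genes (reads per kb of coding sequence per 1000000 reads, linear axis) against the distance of its start from that of Olfr763 (kb), as the mean and SD of 3 mice for WT, het and homo, the groups drawn slightly apart. Olfr801 stands highest at 12.6 in WT, and high and low genes lie side by side along the whole array.

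High and low members were interspersed along the array. Genes next to each other differed in WT level by a median factor of 2.05 over 54 pairs of tested members, against 2.14 over all 1485 pairs and 1.92 over the 175 pairs within a subfamily. The array was divided into 4 runs of 14 genes in chromosome order. The median WT level was 2.09 in the run Olfr763 to Olfr780, 3.20 in Olfr781 to Olfr798, 3.65 in Olfr799 to Olfr812 and 2.17 in Olfr813 to Olfr827. Genes on the plus strand had a median of 2.88 and those on the minus strand 2.16, which are descriptions without a test. The first gene, Olfr763, was at 0.99 ± 0.38 and the last, Olfr827, at 4.21 ± 1.12.

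Levels also moved with the share of sequence that is unique. The 20 members with only unique 100-base stretches had a median WT level of 3.43. The 7 members under 60% had a median of 0.99, between 0.014 and 2.20. Reads without a unique alignment counted for no gene, and the part of read assignment in these levels was not tested. Olfr772 and Olfr773 have equal shares of unique coding stretches and unequal counts. Their annotated exon lengths differ, at 2965 bases for Olfr772 and 936 for Olfr773, and the part of this in the counts was not tested. Olfr772 had 57, 67 and 47 reads in the WT libraries, 58, 40 and 65 in het and 49, 36 and 50 in homo. Olfr773 had 1, 0 and 0 in WT, 0, 4 and 0 in het and 0, 3 and 0 in homo, a total of 8 reads against 469. A library with 0 reads allows a level of up to 3 counts, which is 0.0916 to 0.122 CPM (reads per 1000000 after TMM scaling) in these libraries. Olfr773 was therefore at or close to the limit of detection in every library, and it was the 1 member that failed the filter of 10 reads summed over all libraries. Intervals and limits of this kind cover counting error only. Olfr823 and Olfr824, also with equal shares, were close to each other, at 0.69 ± 0.19 and 0.81 ± 0.22 in WT, with overlapping libraries. In 6 of the 9 pairs of at least 95% identity the WT libraries of the 2 genes did not overlap, for example Olfr809 at 2.43 ± 0.45 and Olfr813 at 5.07 ± 0.51, or Olfr814 at 0.51 ± 0.22 and Olfr815 at 1.30 ± 0.37. Among the 8 such pairs with both genes tested, levels differed 1.13- to 2.53-fold. These pair comparisons are per coding length. Olfr765 was below Olfr767 by that measure, at 0.56 and 0.78, but above it per exon length, at 0.20 and 0.13. Outside the rule, 2 more receptor genes of this region resemble members. Olfr9, just before the array, is 97.1% identical to Olfr763, and Olfr247, inside it, is 98.4% identical to Olfr819. Olfr247 had 6 reads over all libraries where Olfr819 had 383.

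The spread between WT mice was close to what counting allows for many members. The coefficient of variation (CV) of the tested members had a median of 16.2%, where the read numbers alone give 12.8%. Among the 16 members with a mean of at least 100 counts, Olfr820 varied least, with a CV of 3.65%, and Olfr827 most, with 26.7%. Olfr827 had 2.97, 4.09 and 5.14 CPM in the WT libraries, a range that holds all 6 het and homo libraries of this gene.

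The main question was whether the receptor genes that share a chromosome with the deleted enhancer changed with it. The Taar genes, as the sum of 14 genes, had 44.8 ± 0.15 CPM in WT, 37.6 ± 1.27 in het and 22.0 ± 3.02 in homo, with no overlap between genotypes. The array did not follow that order. Its summed level was 155, 157 and 152 CPM in the WT libraries, 146, 167 and 160 in het, and 161, 167 and 150 in homo. The group means were 154.6 ± 2.77, 157.7 ± 10.6 and 159.3 ± 8.93 CPM (SD, n = 3), and the ranges overlapped in all comparisons. The homo mean was 3.07% above WT, the het mean 1.99% above WT and the homo mean 1.06% above het, each smaller than the spread between mice of the deletion groups. As a share of Olfr reads the members made up 5.12%, 5.02% and 4.93% in WT, 4.93%, 5.16% and 5.11% in het, and 4.91%, 5.21% and 4.76% in homo. The homo share was 1.31% lower than WT in relative terms and the het share 0.883% higher, again with overlapping libraries.

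**Figure D2:**
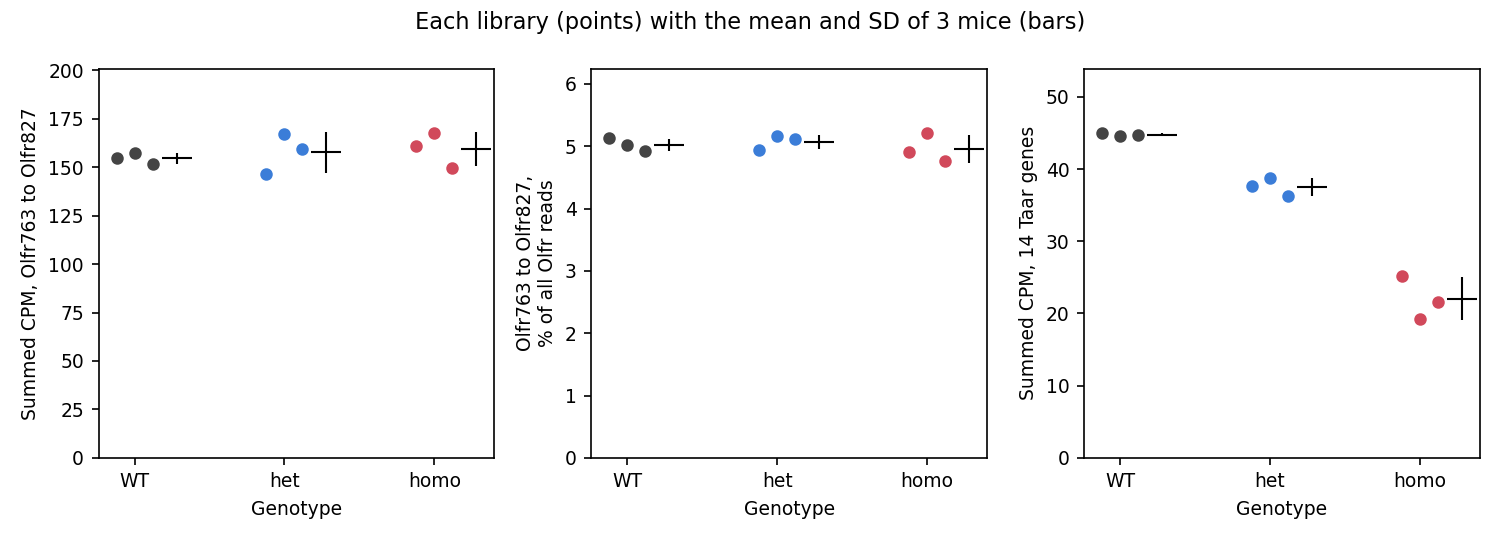
Summed CPM of Olfr763 to Olfr827, their share of all Olfr reads (%) and summed CPM of 14 Taar genes, for each library (points) with the mean and SD of 3 mice per genotype (bars, axes from 0). The members' sums and shares overlap between genotypes, while the Taar sum is 44.8 in WT, 37.6 in het and 22.0 in homo.

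Gene by gene, 0 of the 55 tested members passed an adjusted p of 0.05 in edgeR's quasi-likelihood test in any comparison. Over all 20213 genes tested, 0.0495% passed in homo vs WT, 0.00495% in het vs WT, 0.114% in homo vs het and 0.0643% in the test of any difference among the genotypes. None of the other 1015 tested Olfr genes passed either. DESeq2 also called 0 members in each comparison. At an unadjusted p under 0.05, edgeR gave 2 of 55 members (3.64%) in each of these 4 tests, where 9.26% of all genes passed in homo vs WT, 3.25% in het vs WT, 10.4% in homo vs het and 8.45% in the test of any difference. Of the other 1015 tested Olfr genes, 5.12%, 2.86%, 5.32% and 4.24% passed in the same order. The share of members was thus below that of all genes in homo vs WT, in homo vs het and in the test of any difference. The share of the other Olfr genes was below it in these tests too. In het vs WT the members were close to all genes. The lowest adjusted p of any member was 0.423 in homo vs WT, 1.00 in het vs WT and 0.276 in homo vs het.

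The fold changes of the members centred near 0. In homo vs WT the median log2 fold change was 0.018, with quartiles of -0.08 and 0.16, where the other Olfr genes had a median of 0.07 and all genes -0.00057. Of the members 31 were above 0 and 24 below, and 49.8% of all genes were above 0. In het vs WT the median was 0.015 (30 above 0 and 25 below, where 51.5% of all genes were above), against 0.0058 for other Olfr genes. In homo vs het it was 0.019 (31 above and 24 below, where 49.5% of all genes were above), against 0.058. These comparisons share libraries, so their values are not independent of each other. The largest fitted values belonged to genes with few reads, Olfr785 at 0.88 and Olfr803 at -0.63 in homo vs WT, with standard errors (SE) of 0.52 and 0.47.

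How small a change could have been seen differed between members. The 95% interval of a member's log2 fold change in homo vs WT had a median half-width of 0.45, which corresponds to 1.36-fold. The interval lay wholly within 1.5-fold in either direction for 25 of 55 members in homo vs WT, 27 in het vs WT and 26 in homo vs het. The background share is 69.9%, 71.4% and 70.0% of all genes, many of which have more reads. Within 2-fold lay 47, 48 and 46 members. For the remaining members a change of that size was not excluded at this depth, Olfr785 and Olfr774 among them. For Olfr801 the interval ran from -0.44 to 0.09 in homo vs WT.

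**Figure D3:**
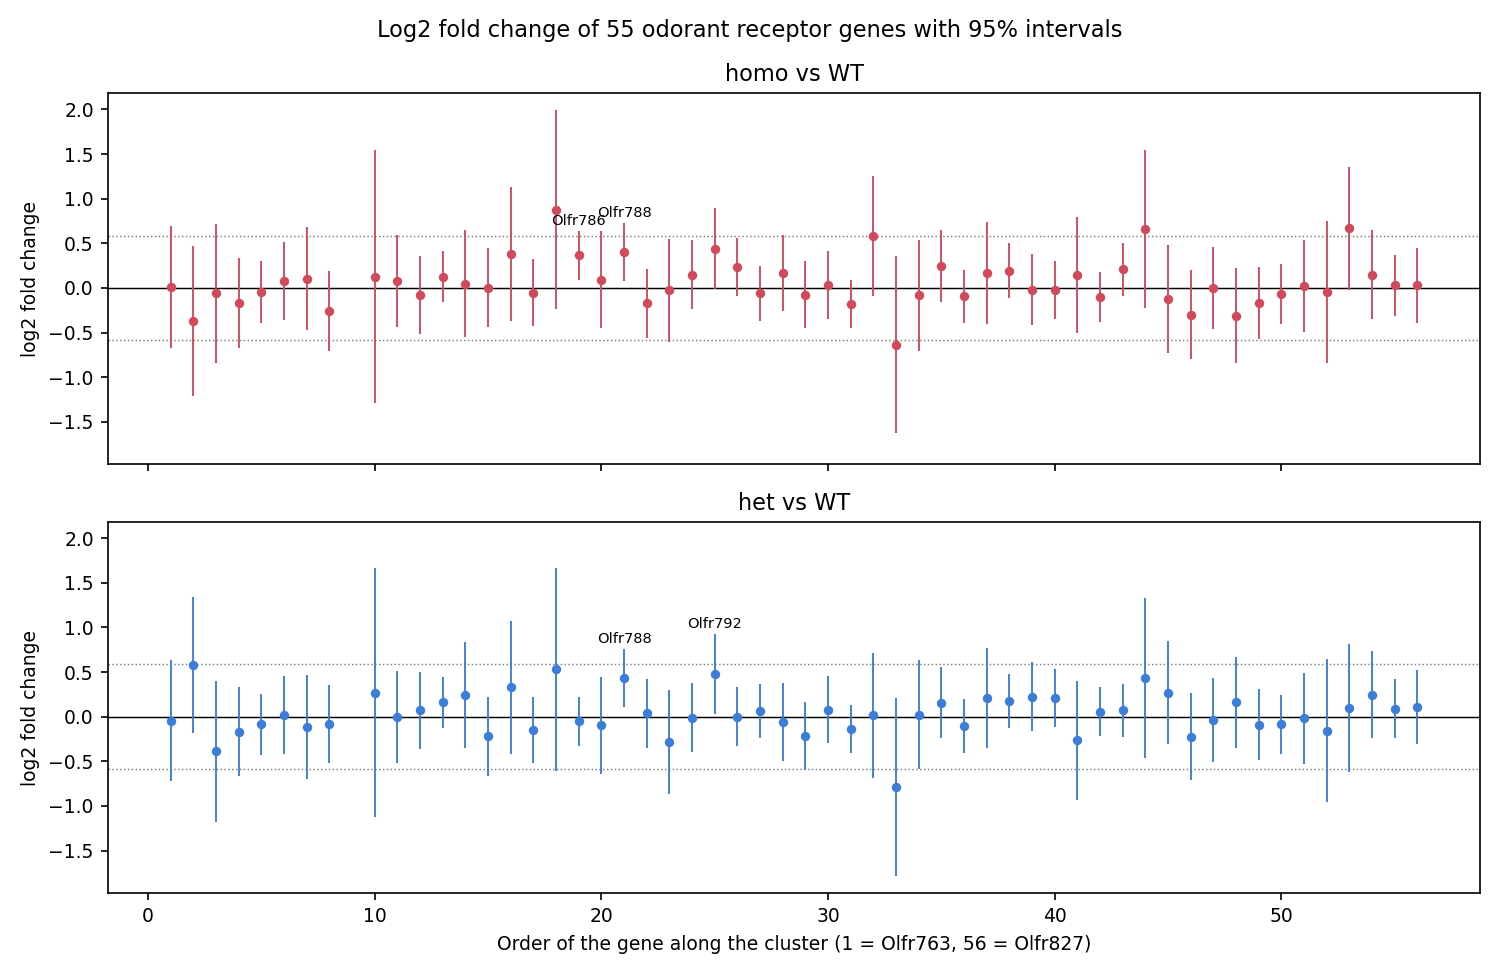
Log2 fold change of the 55 tested members (points) with 95% intervals (bars) from edgeR in chromosome order, for homo vs WT above and het vs WT below. Dotted lines mark 1.5-fold. Intervals of nearly all members cross 0, and names mark the members with an unadjusted p under 0.05, none of which passed after adjustment.

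The members with the smallest p-values differed by less than 2-fold between genotypes. Olfr786, an MOR111 gene, had 4.58, 4.58 and 5.03 CPM in the WT libraries, 4.67, 4.65 and 4.36 in het and 6.76, 5.36 and 6.11 in homo. All homo libraries were higher than all others. The log2 difference was 0.37 ± 0.13 (SE) in homo vs WT, with an edgeR p of 0.0117 and an adjusted p of 0.423, and 0.42 ± 0.13 in homo vs het, with an edgeR p of 0.0052 and an adjusted p of 0.276. Olfr788, from the same subfamily and 2 genes further along, was lowest in WT instead. It had 3.37, 3.30 and 4.06 CPM in WT, 4.10, 5.37 and 4.97 in het and 4.26, 5.20 and 4.72 in homo. Its log2 difference from WT was 0.40 ± 0.15 in homo, with an edgeR p of 0.0184 and an adjusted p of 0.451, and 0.43 ± 0.15 in het, with an edgeR p of 0.0124 and an adjusted p of 1.00.

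Olfr792 (MOR108) showed a similar order, with 1.77, 2.17 and 1.59 CPM in WT, 3.17, 2.61 and 1.96 in het and 2.40, 2.28 and 2.86 in homo. The homo libraries lay above WT, while the lowest het library fell inside the WT range. Its log2 difference was 0.44 ± 0.21 in homo, with an edgeR p of 0.0569 and an adjusted p of 0.554, and 0.47 ± 0.21 in het, with an edgeR p of 0.0395 and an adjusted p of 1.00. Olfr765, near the start of the array, had 15, 12 and 15 reads in WT, 27, 20 and 17 in het and 10, 10 and 11 in homo. Its homo libraries lay below het without overlap, with a log2 difference of -0.95 ± 0.38, an edgeR p of 0.0232 and an adjusted p of 0.399. With so few reads its counts are uncertain. Olfr765 has 97.1% protein identity to its neighbour Olfr767, and 86.0% of its 100-base coding stretches were unique. The other members among the 5 smallest p-values of a comparison, Olfr802, Olfr819 and Olfr824 among the homo comparisons and Olfr803 and Olfr810 in het vs WT, had unadjusted p-values between 0.056 and 0.186. Olfr802, which is 92.9% identical to Olfr786, had 20, 22 and 20 reads in WT and 40, 20 and 29 in homo. After scaling, its homo libraries lay above WT by a narrow margin, at 1.41, 0.81 and 1.12 CPM against 0.80, 0.67 and 0.77.

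Counting members whose libraries did not overlap gave the same picture. In homo vs WT, 4 of 55 members lay wholly higher (Olfr786, Olfr788, Olfr792 and Olfr802), where the background is 7.46% of all genes, and 1 wholly lower (Olfr801), where it is 7.95%. Olfr801 had 11.9, 12.8 and 11.2 CPM in WT, 8.69, 12.9 and 11.1 in het and 11.0, 11.0 and 9.86 in homo. Its log2 difference in homo vs WT was -0.18 ± 0.13, with an edgeR adjusted p of 0.71, and the het libraries spanned both groups. In het vs WT, 2 members were wholly higher (Olfr788 and Olfr808; background 4.36%) and 2 wholly lower (Olfr803 and Olfr816; background 4.32%). In homo vs het, 1 was wholly higher (Olfr786; background 6.41%) and 2 wholly lower (Olfr765 and Olfr809; background 7.67%).

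The order of levels along the array held across genotypes. Spearman's rho between group means over the 56 members was 0.974 for WT and het, 0.973 for WT and homo and 0.980 for het and homo, as a description across genes that share their libraries. Of the 4 runs of 14 genes, the first and the last 2 had summed levels of 25.1, 51.4 and 36.8 CPM in homo against 25.1, 51.7 and 36.8 in WT, changes of 0.0226%, -0.598% and 0.0664%. The run Olfr781 to Olfr798, which holds Olfr786, Olfr788 and Olfr792, had 41.7, 42.2 and 39.0 CPM in WT, 39.4, 43.5 and 44.5 in het and 45.8, 47.9 and 44.3 in homo. All homo libraries of this run were above WT, by 12.3% in the mean, while het spanned the WT range. This run was singled out after its values were seen, and no test was made of it.

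The subfamily sums are given as a description without a test. MOR114, with 13 genes, summed to 37.0 ± 1.58 CPM in WT, 36.6 ± 3.14 in het and 38.5 ± 3.21 in homo. MOR110, which includes Olfr801, summed to 36.6 ± 1.51, 35.6 ± 5.73 and 35.8 ± 3.01 CPM. MOR111, with Olfr786 and Olfr788, had 20.95 ± 1.27, 22.1 ± 1.23 and 23.6 ± 2.42 CPM, so that the homo mean was 12.7% above WT, and its homo range of 21.3 to 26.2 overlapped the WT range of 19.5 to 21.7. MOR108, with Olfr792, had 12.2, 11.3 and 11.4 CPM in the WT libraries, 13.8, 12.2 and 12.6 in het and 12.9, 11.7 and 15.2 in homo. All het libraries lay above WT, narrowly, by 10.7% in the mean, and the homo mean was 14.5% above WT with overlapping libraries. MOR210, at the very end of the array, had 10.8 ± 1.44, 11.8 ± 1.69 and 11.7 ± 0.83 CPM, and MOR113 had 10.7 ± 1.23, 11.6 ± 1.33 and 10.4 ± 1.196 CPM.

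**Figure D4:**
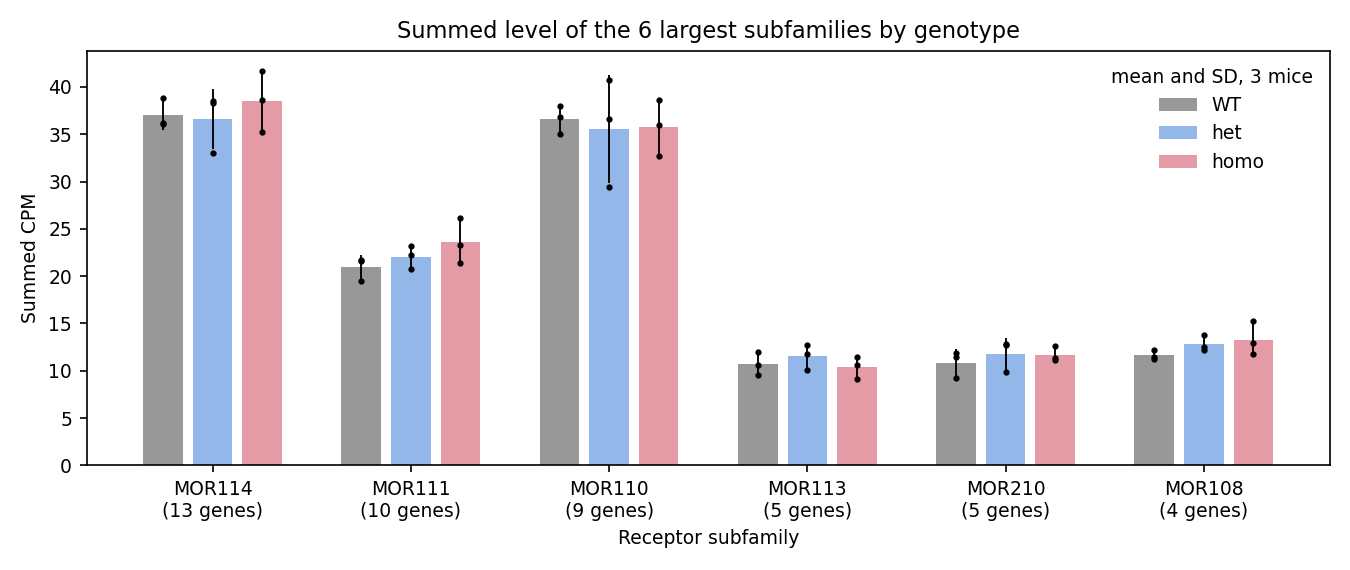
Summed CPM (linear axis from 0) of the 6 largest receptor subfamilies of the array for WT, het and homo. Bars and lines are the mean and SD of 3 mice and dots are libraries, and for MOR114 the bars are 37.0, 36.6 and 38.5 CPM.

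The other Olfr genes of chromosome 10 and the nearest neighbours of the array gave no call either. The other 11 Olfr genes on chromosome 10 summed to 20.4 ± 0.49 CPM in WT, 21.7 ± 1.26 in het and 21.5 ± 0.075 in homo, and none of the 10 tested passed in edgeR. Only Olfr9 and Olfr247 of these lie beside or inside the array, and the rest lie far from it, between 78611003 and 79036274. In homo vs WT the log2 differences of the tested genes ran from -0.34 for Olfr9 to 0.55 for Olfr1356. The nearest protein-coding genes that are no receptors were Mettl7b, Itga7, Bloc1s1, Rdh5 and Cd63 on the side of Olfr763, and Neurod4 and Tespa1 on the side of Olfr827. All 7 were tested and none passed. Cd63, which encodes a tetraspanin, had 28.8 ± 2.82 CPM in WT and 26.2 ± 0.37 in homo, and Itga7, an integrin gene, 29.5 ± 0.31 and 29.8 ± 0.45.

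Genes that serve all ORs were listed separately. None of 11 odorant transduction genes such as Gnal and Adcy3, of 4 receptor trafficking genes such as Rtp1 and Rtp2, or of 10 genes of receptor choice such as Lhx2, Ldb1 and Ebf1 passed in edgeR in any comparison. At an unadjusted edgeR p under 0.05 in homo vs WT there were 3 of 11, 3 of 4 and 4 of 10, where 9.26% of all genes passed. The log2 differences in homo vs WT ran from -0.13 to 0.12, from 0.064 to 0.14 and from -0.046 to 0.21. The transduction and receptor choice lists thus held genes in both directions. The transduction genes summed to between 8775 and 8911 CPM in WT and between 9159 and 9739 in homo. The trafficking genes lay between 1455 and 1544 in WT and between 1603 and 1655 in homo, and those of receptor choice between 4026 and 4137 and between 4395 and 4489. The WT and homo ranges of these 3 sums did not overlap, nor did those of all Olfr genes together, at 3023 to 3134 and 3144 to 3279 CPM. The part of this shift in the members' CPM was not tested. When library size was set to the summed Olfr reads, the members' median log2 fold change in homo vs WT turned from 0.018 to -0.042.

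The tissue carried the markers of olfactory epithelium, and some libraries also carried vomeronasal receptor RNA. All markers of mature and immature sensory neurons, globose basal cells, sustentacular cells and connective tissue were above 0. The 7 mature neuron markers summed to between 7092 and 7216 CPM in WT and between 7282 and 7910 in homo, and the 5 immature neuron markers to between 1756 and 1801 and between 1837 and 1882, so both were higher in homo without overlap. The 6 sustentacular cell markers were lower in homo without overlap, at 7314 to 7817 CPM against 7854 to 8172 in WT. The neuron marker sums were thus higher in homo, as were the sums of the transduction, trafficking, receptor choice and Olfr genes. Every mature neuron marker except Stoml3 is also in the transduction list, so those sums overlap in genes and are not separate observations. The part of the marker sums in the members' values was not tested. The sums of the 5 globose basal cell, 5 connective tissue, 2 dorsal zone and 2 ventral zone markers overlapped between WT and homo. The 330 vomeronasal receptor genes, 55 of them at 0 in every library, summed to 67.9 CPM in het replicate 1, 119.6 in homo replicate 2 and 69.5 in homo replicate 3, against 14.6 to 17.3 in the other 6 libraries. The members' sums in these 3 libraries, 146, 167 and 150 CPM, included the lowest and the highest of all 9. Without them 0 members passed in edgeR, with median log2 fold changes of 0.024 in homo vs WT, where 1 homo library was left, 0.082 in het vs WT and -0.022 in homo vs het.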

How the data were processed

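Whole MOE RNA was polyA-selected and sequenced in strand-marking libraries. The submitters' processing notes list Trimmomatic 0.36, HISAT2 2.1.0, HTSeq 0.6.1p1, DESeq2 1.20.0 and the build GRCm38 (mm10), while the paper names another counter. The gene annotation and strand setting are not given in the sources used here. The authors deposited raw read counts per gene, which were analysed, and the same counts divided by 1 size factor per library (a signal value), used only as a check. All 9 columns were assigned from their names.

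Counts were fitted over all 9 libraries with edgeR 4.0.16 (TMM, quasi-likelihood, R 4.3.3) after dropping genes under 10 summed counts, with Benjamini-Hochberg adjustment over 20213 genes. The 5 summary entries that name no gene stayed out. Reads with no feature were 21.6% to 22.4% of each library. Reads without a unique alignment, which also counted for no gene, were 16.9% to 19.4%. The script was tested on simulated data. DESeq2 1.42.0 served as an alternative. Nothing in the labels says how far replicates are independent beyond being separate samples, so p-values measure the spread between these samples. Sums and shares were described without a test. Lengths and identities came from GENCODE M21 coding sequences. Proteins were aligned with Biopython. Members and lists were chosen with earlier results of these data known. Named members were the 10 highest and 3 lowest tested by level, for which exon length was planned and coding length used. Also named were the 5 with the smallest p in each comparison and the least and most variable in WT. The 2 closest pairs and the first and last genes were named as well. Levels were compared over mice, n = 3 per genotype.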

Additional observations from a re-analysis of the deposited data

How the results depend on the processing

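Every alternative run left 0 members called in every comparison, with between 1 and 4 members at an unadjusted p under 0.05. The alternatives were DESeq2 size factors, Olfr reads as library size, DESeq2 with and without independent filtering, no low-count filter, filterByExpr, the replicate block, 6 libraries only, each library left out in turn, and the 3 libraries with vomeronasal RNA left out. Medians, summed levels and shares moved by less than the spread between replicates (1 SD), though some near 0 changed sign. The median in homo vs WT lay between -0.0086 and 0.046 with 1 library left out, that in het vs WT between -0.0054 and 0.081, the highest without het replicate 1, and that in homo vs het between -0.037 and 0.059, the lowest without het replicate 1. The summed level changed by 0.457% to 6.17% in homo vs WT, by -1.10% to 5.68% in het vs WT and by -2.47% to 4.22% in homo vs het. The share of Olfr reads changed by -3.76% to 0.627%, -0.0405% to 2.21% and -4.61% to -0.254% in the same order. The fold changes of the 5 members with the smallest p in each comparison, and of Olfr785, Olfr801 and Olfr803 in homo vs WT, kept their sign in each of the 16 alternatives tried on them, and those of the other named members were not recomputed.

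Replicate numbers did not pair the mice, since same-numbered libraries correlated between -0.21 and 0.092 in their deviations from the group means. With the replicate block 0 members were called and the median in homo vs WT was 0.030. Adding pseudogene rows of the number range was not run, because the table analysed holds 0 of them. Depth limits the precision for most members, since 16 of 56 averaged at least 100 counts.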
